A study of Mus musculus with 6 samples.

Results

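Heme is built by a short chain of enzymes, and 9 genes of that chain were read step by step in sorted bone marrow cells of mice that carry the NUP98-HOXD13 (NHD13) fusion and of wild-type (WT) mice. They are the mitochondrial glycine carrier Slc25a38 and the enzyme genes Alas1, Alas2, Alad, Uros, Urod, Cpox, Ppox and Fech. The members were chosen by symbol as genes of the pathway, and all 9 were found among the 17523 genes of the deposited count table and passed the filter on low counts. Both groups are C57BL/6 mice. The NHD13 mice, a model of myelodysplastic syndrome, express the nucleoporin-homeobox fusion from a transgene that is known to be driven by Vav regulatory elements and so is active in blood cells generally. The WT mice carry no fusion. Each group has 3 libraries of total RNA from FACS-sorted marrow cells that the series calls hematopoietic stem cells (HSCs). Neither the ages of the mice nor the surface markers used for sorting are stated, and nothing says that the libraries came from separate animals, so p-values measure the spread between these libraries.

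The heme pathway begins and ends in the mitochondrion. Glycine and succinyl-CoA are joined there to 5-aminolevulinate, the middle steps in the cytosol turn this into a porphyrin ring, and the last steps, again in mitochondria, oxidise the ring and insert iron. Most body heme is made by red cell precursors, which switch from the general first enzyme, Alas1, to the erythroid one, Alas2, while all blood cells need some heme for cytochromes, catalase and peroxidases. In myelodysplastic syndrome, heme synthesis is of interest because ineffective red cell formation and iron-loaded sideroblasts are features of the disease.

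The libraries held 12541538 to 14388772 counts. The row for the fusion itself had 185, 179 and 167 counts in NHD13 replicates 1, 2 and 3, against 0 in all 3 WT libraries. One library stood apart: NHD13 replicate 1 had 2.36% of its counts in the ribosomal RNA gene Rn45s, against 0.0987% to 0.209% in the other five, and lay at 28.2 on the second principal component (12.3% of the variance), where its group's other libraries lay at -9.44 and -14.1. The libraries also differed in sex-linked RNA, with 0.0177% to 0.028% of counts from Y-linked genes in NHD13 and 0.0109% to 0.0194% in WT. Xist, the RNA that coats the inactive X chromosome, had 34, 28 and 9885 counts in NHD13 replicates 1, 2 and 3, against 5852, 13700 and 15472 counts in WT. NHD13 replicates 1 and 2 thus stood far below the other four libraries in Xist, and the part of sex in the members' values, including those of the X-linked Alas2, was tested only by adding the Y-linked share to the model. Among markers of the sorted cells, Kit, a receptor of blood progenitors, was at 215 to 232 CPM (the usual depth-scaled count, here with TMM-scaled library totals) in NHD13 and 244 to 269 CPM in WT. The stem cell gene Gata2 was at 30.9 to 36.9 CPM in NHD13 and 41.3 to 60.8 CPM in WT. It was called lower (log2 change -0.52, edgeR adjusted p = 0.0266). Mllt3, another stem cell gene, was at 30.6 to 63.4 CPM in NHD13 and no lower than 28.6 CPM in WT, and the groups overlapped. The stem cell markers Slamf1 and Procr were at 3.45 CPM or less in every library. Erythroid markers summed to 4739 to 8180 CPM in NHD13 and 3554 to 4046 CPM in WT, and mature neutrophil markers to 22955 to 31775 CPM in NHD13 and 33594 to 51980 CPM in WT. Of the other marker lists, all 7 tested multipotent progenitor markers, 6 of 7 monocyte and 6 of 7 mast cell and basophil markers were called lower in NHD13, and of 11 long-term HSC markers 2 were higher and 5 lower, where 15% of all genes tested were called higher and 15.3% lower.

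In the GENCODE vM21 annotation of GRCm38, 8 of the protein-coding members lie as follows: Slc25a38 at chr9:120110374-120124504 (+ strand), Alas1 at chr9:106233455-106248654 (- strand), Alas2 at chrX:150547375-150570638 (+ strand), Alad at chr4:62509169-62519918 (- strand), Uros at chr7:133686243-133710072 (- strand), Urod at chr4:116989965-116994413 (- strand), Cpox at chr16:58670292-58717636 (+ strand) and Ppox at chr1:171275990-171281186 (- strand).

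Stretches of promoter are shown for 4 members, Alas2 and Cpox because they hold the motifs searched for, and Alad and Urod because they rose and hold none in the stretch shown, although the other Alad window has a CACCC box 47 bases before its start. They come from RefSeq (GRCm38.p6, the build that is also called mm10), run 5′ to 3′ on the gene's strand, and end at the base before the RefSeq start, or for Alas2 a little upstream of it. RefSeq and GENCODE place some starts differently. The Alas2 stretch ends inside the first GENCODE exon, the Cpox and Alad stretches end upstream of the GENCODE start, and the Urod stretch ends at it. Capitals mark GATAA, the core of a site for GATA factors, CACCC, the box bound by KLF factors, and TGCGCA, the core of an NRF1 site, each on either strand, so that they also appear as TTATC and GGGTG.
Alas2, chrX:150547217-150547404, + strand: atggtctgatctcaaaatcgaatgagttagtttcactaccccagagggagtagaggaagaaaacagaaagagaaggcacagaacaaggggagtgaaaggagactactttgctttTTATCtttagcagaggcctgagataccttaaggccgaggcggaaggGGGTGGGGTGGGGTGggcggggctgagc
Cpox, chr16:58670008-58670207, + strand: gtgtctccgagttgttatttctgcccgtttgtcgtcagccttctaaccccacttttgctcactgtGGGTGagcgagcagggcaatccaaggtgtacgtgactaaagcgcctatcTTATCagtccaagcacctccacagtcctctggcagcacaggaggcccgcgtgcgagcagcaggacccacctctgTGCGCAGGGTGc
Alad, chr4:62520064-62520263, - strand: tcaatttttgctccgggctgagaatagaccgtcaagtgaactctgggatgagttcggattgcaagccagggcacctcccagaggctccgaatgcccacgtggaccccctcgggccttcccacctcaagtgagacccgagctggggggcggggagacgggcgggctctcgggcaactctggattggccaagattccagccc
Urod, chr4:116994414-116994613, - strand: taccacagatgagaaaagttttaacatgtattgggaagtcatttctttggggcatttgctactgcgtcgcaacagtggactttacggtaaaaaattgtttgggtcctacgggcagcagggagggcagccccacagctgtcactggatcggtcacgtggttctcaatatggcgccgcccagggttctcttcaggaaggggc
Within 250 bases before the RefSeq start, Alas2 had 1 GATAA and 3 CACCC boxes in a row, which lie in the GENCODE exon, and Cpox had 1 GATAA, 4 CACCC boxes and 1 TGCGCA. The Urod window held none of the 3 motifs, nor did the Alad window shown. RefSeq gave 11 windows for 8 members, some of them overlapping, and none was used for Fech. GATAA was found in 3 of these windows (the other is the second Uros window), CACCC in 6 and TGCGCA in 1, against 22.6%, 52.0% and 6.43% of all 32851 windows in the table. A match of letters is a description and not a bound site.

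Of the 9 members, 7 rose in NHD13 cells and none fell at an adjusted p under 0.05 (edgeR quasi-likelihood test, Benjamini-Hochberg adjustment over the 12013 genes tested). Over all genes tested, 15% were called higher and 15.3% lower, or 30.3% in either direction. The 7 were the glycine carrier and every member enzyme after the first step, with log2 changes of 0.59 (Ppox) to 1.20 (Cpox), and the median of the 7 was 1.98-fold. The median log2 change of the 9 was 0.84, against 0.00 over all genes tested. The exception was the first step, where Alas1 and Alas2 did not pass and went in opposite directions. For each of the 7, every NHD13 library lay above every WT library, as did 23.5% of all genes tested, but NHD13 replicate 1 was nearer to WT (1.07-fold to 1.66-fold the WT mean) and replicates 2 and 3 were not (1.72-fold to 2.62-fold).

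**Figure D1:**
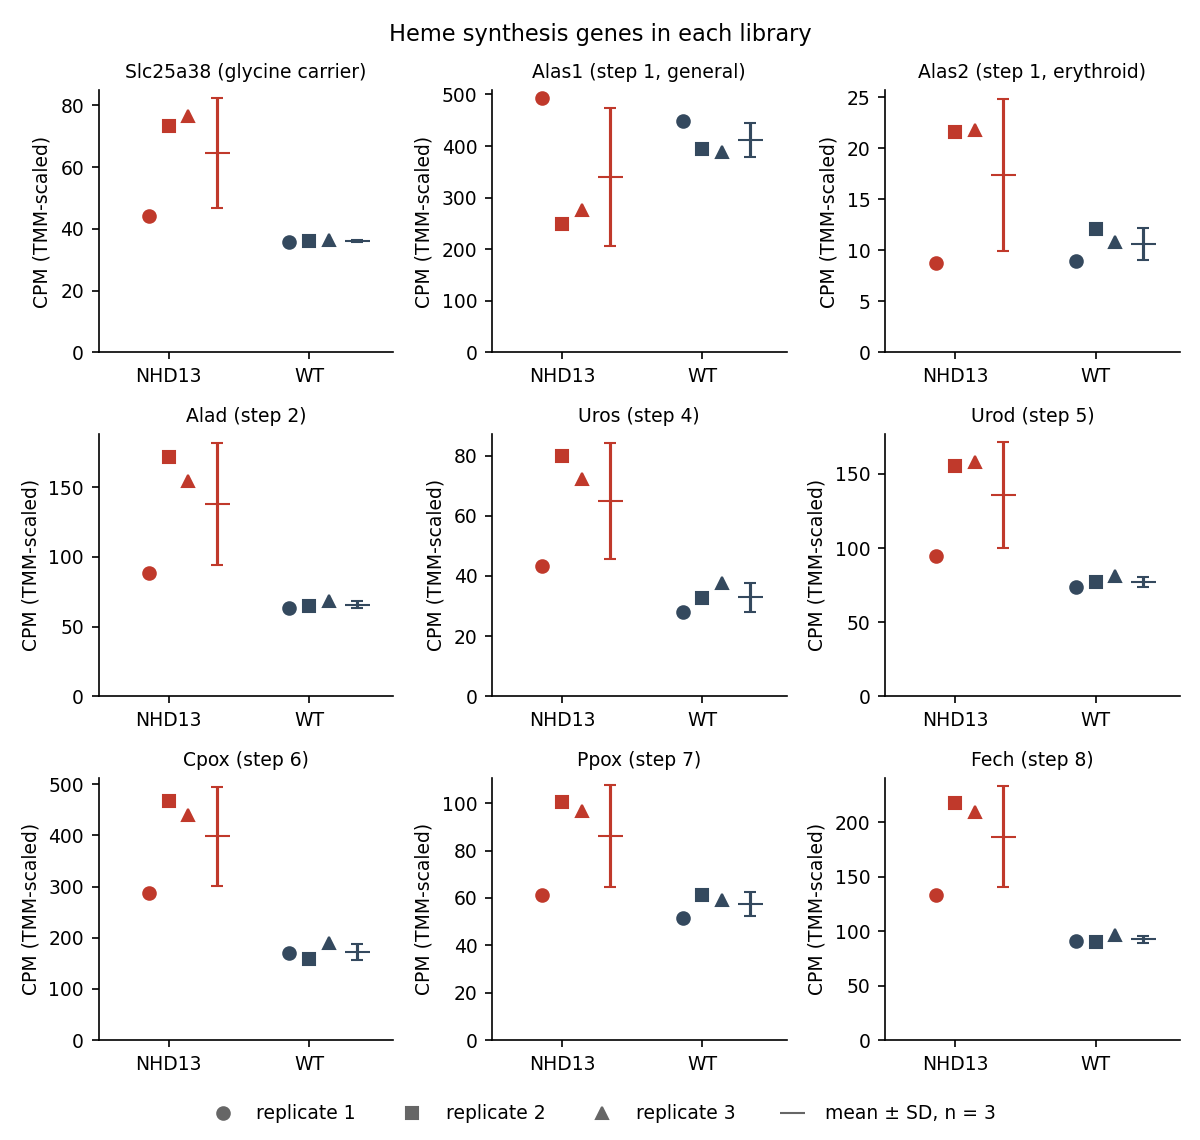
Expression of the 9 heme synthesis genes in each library, in TMM-scaled CPM on axes that start at 0, with NHD13 libraries on the left and WT libraries on the right of each panel, and the mean ± SD (n = 3) beside them. NHD13 replicate 1 (circle) lies between WT and NHD13 replicates 2 and 3 in 7 panels, and at or beyond WT on the other side for Alas1 and Alas2.

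Slc25a38 supplies the first step by carrying glycine into mitochondria, and its loss causes a congenital sideroblastic anemia in people. It was at 44.2, 73.3 and 76.5 CPM in NHD13 replicates 1, 2 and 3, against 35.8, 35.9 and 36.5 CPM in WT. The WT libraries were nearly level, while the lowest NHD13 library stood only slightly above them. The mean was 64.7 ± 17.8 CPM in NHD13 and 36.1 ± 0.373 CPM in WT (SD, n = 3 each), a log2 change of 0.84 (SE 0.18, edgeR adjusted p = 0.0104).

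Alas1, the general form of 5-aminolevulinate synthase and the rate-limiting enzyme of heme synthesis in non-erythroid cells, was the most abundant member by counts in WT. It was at 493, 249 and 277 CPM in NHD13 replicates 1, 2 and 3, against 449, 395 and 389 CPM in WT. The groups overlapped, because NHD13 replicate 1 was the highest of all 6 libraries and NHD13 replicates 2 and 3 were the lowest. The log2 change was -0.28 (SE 0.22, edgeR adjusted p = 0.377). Without NHD13 replicate 1 it was -0.64 (SE 0.07) and passed the threshold (edgeR adjusted p = 2.59e-05, in a fit that called 24.2% of genes lower).

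Alas2, the X-linked erythroid form of the same enzyme, is the step through which red cell precursors set their heme output, and its loss of function is the commonest inherited cause of sideroblastic anemia. It was far scarcer, at 8.77, 21.6 and 21.8 CPM in NHD13 replicates 1, 2 and 3, against 8.93, 12.1 and 10.8 CPM in WT. NHD13 replicate 1 was the lowest of the 6 libraries and NHD13 replicates 2 and 3 were the highest, the reverse of Alas1. The values rest on 117, 311 and 315 counts in NHD13 and 113, 162 and 155 counts in WT. The log2 change was 0.72 (SE 0.31, edgeR adjusted p = 0.11), and without NHD13 replicate 1 it was 1.03 (SE 0.13, edgeR adjusted p = 2.66e-05, with 24.5% of genes called higher). Of its 2403 exon bases, 311 are shared with Apex2 on the other strand, and whether counting used the strand is unstated. Apex2 did not pass the test, at 9.97, 10.9 and 12.1 CPM in NHD13 replicates 1, 2 and 3 and 11.4, 9.37 and 10.7 CPM in WT.

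To compare the forms, CPM was divided by each gene's exon length in kilobases. Per length, Alas1 was at 79.9, 40.4 and 44.8 CPM per kilobase in NHD13 replicates 1, 2 and 3 and at 72.7, 64.0 and 63.0 in WT. Alas2 was at 3.65, 8.99 and 9.05 CPM per kilobase in NHD13 and at 3.71, 5.02 and 4.49 in WT. Alas1 therefore led in every library. The share of Alas2 in the sum of both was 4.37%, 18.2% and 16.8% in NHD13 replicates 1, 2 and 3, against 4.86%, 7.27% and 6.66% in WT. NHD13 replicates 2 and 3 were above all WT libraries and NHD13 replicate 1 was below them all. The size of the share rests on the exon lengths used, 6174 bases for Alas1 and 2403 for Alas2 over all annotated transcripts. By raw counts, the Alas2 to Alas1 ratio was 0.0178, 0.0868 and 0.0786 in NHD13 replicates 1, 2 and 3. In WT replicates 1, 2 and 3 it was 0.0199, 0.0305 and 0.0278. The mean Alas2 to Alas1 ratio was 0.157 ± 0.0968 in NHD13 and 0.0669 ± 0.0142 in WT (SD, n = 3 each), given without a test. The 2 genes summed to 83.5, 49.3 and 53.9 CPM per kilobase in NHD13 and to 76.4, 69.0 and 67.5 in WT, so that the first step as a whole was lower in NHD13 replicates 2 and 3 than in any other library.

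**Figure D2:**
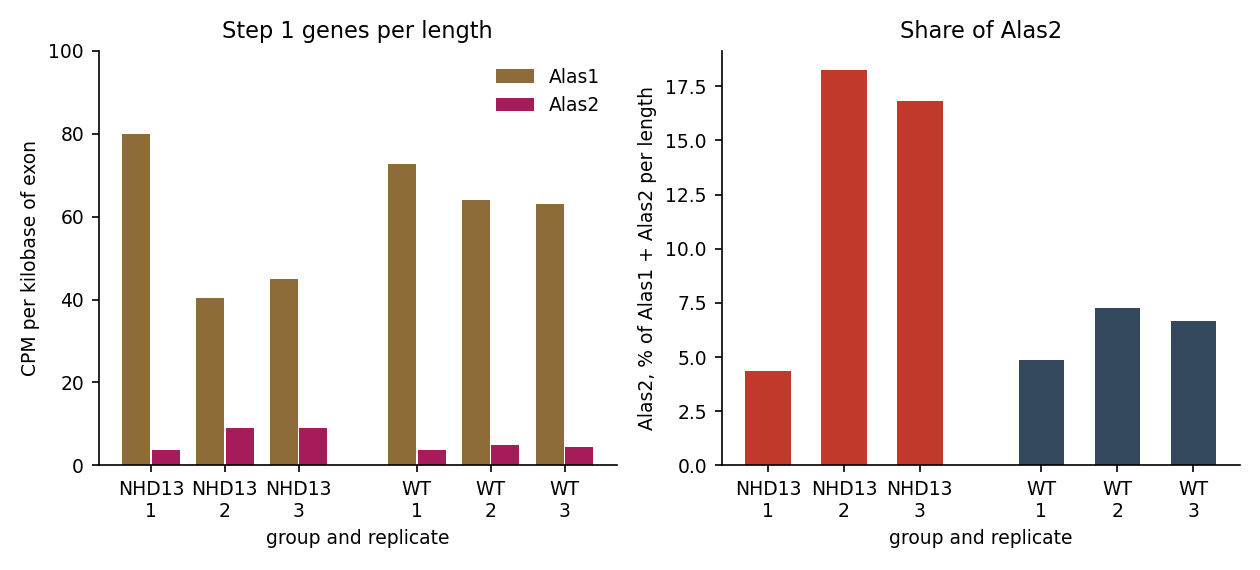
Left, CPM per kilobase of exon of Alas1 and Alas2 in each library, NHD13 first; right, the share of Alas2 in the sum of both, in percent. The share was 18.2% and 16.8% in NHD13 replicates 2 and 3, 4.37% in NHD13 replicate 1 and at most 7.27% in WT.

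The cytosolic enzymes rose together. Alad, which joins pairs of 5-aminolevulinate molecules into porphobilinogen, was at 88.5, 171 and 155 CPM in NHD13 replicates 1, 2 and 3, against 63.4, 65.1 and 68.5 CPM in WT, so that even its lowest NHD13 library was above WT. Its mean was 138 ± 43.8 CPM in NHD13 and 65.7 ± 2.6 CPM in WT (SD, n = 3 each), a log2 change of 1.07 (SE 0.21, edgeR adjusted p = 0.00708). Uros closes the ring into the asymmetric uroporphyrinogen III. It was at 43.2, 79.8 and 72.1 CPM in NHD13, against 28.0, 32.8 and 37.7 CPM in WT, where the libraries spread more than for Alad (log2 change 0.98, SE 0.21, edgeR adjusted p = 0.0102). Urod, which removes carboxyl groups from the ring's side chains and is deficient in porphyria cutanea tarda, was at 94.4, 155 and 158 CPM in NHD13, against 73.9, 76.8 and 80.8 CPM in WT (log2 change 0.82, SE 0.17, edgeR adjusted p = 0.01).

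Back in the mitochondrion, Cpox had the largest change of the 9. This coproporphyrinogen oxidase was at 288, 468 and 439 CPM in NHD13 replicates 1, 2 and 3, against 170, 159 and 190 CPM in WT, and it was the member whose NHD13 replicate 1 stood farthest from WT, at 1.66-fold the WT mean. Its mean was 398 ± 96.8 CPM in NHD13 and 173 ± 15.7 CPM in WT (SD, n = 3 each), a 2.30-fold rise (log2 1.20, SE 0.17, edgeR adjusted p = 0.00193). Of its 6661 exon bases, 204 are shared with Gpr15 on the other strand, which was at 0.764 to 1.8 CPM in NHD13 and 1.03 to 1.6 CPM in WT.

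Ppox, which oxidises protoporphyrinogen, had the smallest change of the 7. It was at 61.23, 101 and 96.5 CPM in NHD13 replicates 1, 2 and 3, against 51.5, 61.2265 and 59.1 CPM in WT, so that NHD13 replicate 1 and WT replicate 2 had almost the same value. The log2 change was 0.59 (SE 0.17, edgeR adjusted p = 0.0324). Leaving out any single library except NHD13 replicate 1 ended the call (edgeR adjusted p = 0.0839 to 0.117), as did testing with no filter on low counts (adjusted p = 0.0809). Its exons share 791 of 4515 bases with B4galt3 on the other strand, which did not pass the test (43.8 ± 2.45 CPM in NHD13 and 45.3 ± 3.41 CPM in WT, n = 3 each).

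Fech, the ferrochelatase that inserts iron into protoporphyrin and itself carries an iron-sulfur cluster, was at 133, 218 and 209 CPM in NHD13 replicates 1, 2 and 3, against 90.5, 90.3 and 96.5 CPM in WT. The groups were well apart except for NHD13 replicate 1, which lay between them. The mean was 187 ± 46.5 CPM in NHD13 and 92.5 ± 3.52 CPM in WT (SD, n = 3 each), a 2.02-fold rise (log2 1.01, SE 0.16, edgeR adjusted p = 0.00368).

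**Figure D3:**
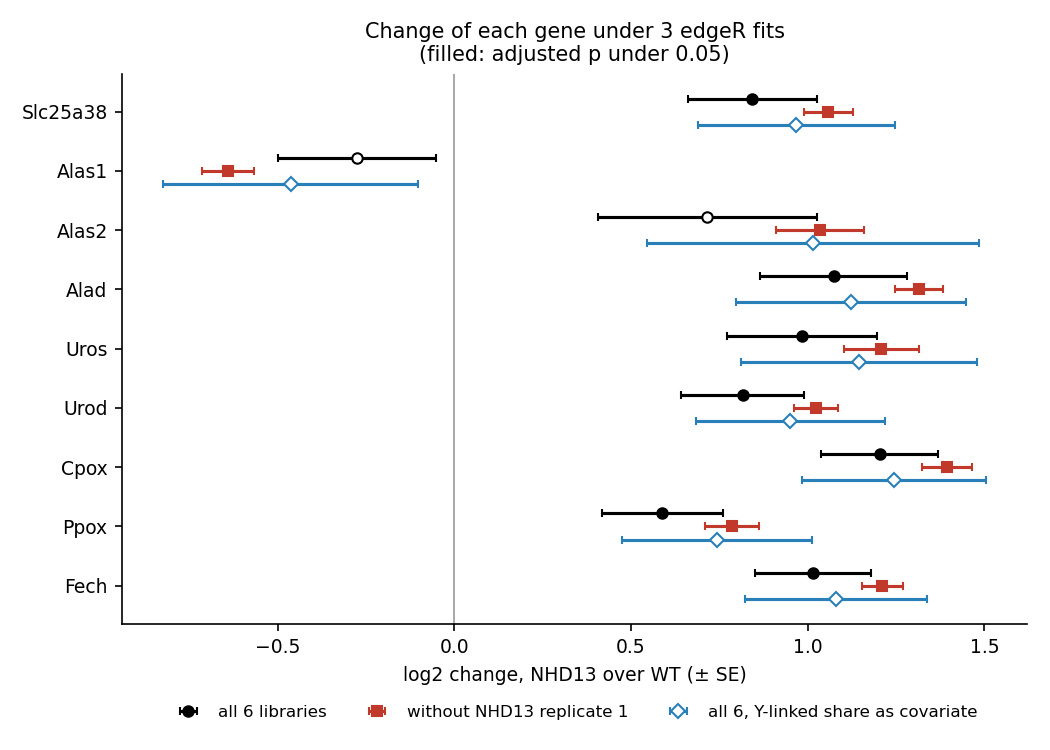
Log2 change of each gene, NHD13 over WT, with its standard error, from edgeR with all 6 libraries (circles), without NHD13 replicate 1 (squares) and with the Y-linked share of counts as a covariate (diamonds); filled symbols passed an adjusted p of 0.05. All 9 passed without NHD13 replicate 1 and none passed with the covariate, while no change switched direction.

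How many members were called varied with the libraries and the model. Without NHD13 replicate 1 all 9 members passed, with log2 changes of 0.79 to 1.39 for the 7 (48.7% of genes were then called). Without WT replicate 2 only Alad, Cpox and Fech passed (6.8% of genes were called higher), and Slc25a38, Uros and Urod were just over the threshold (edgeR adjusted p = 0.0518 to 0.0531). With the Y-linked share of counts as a covariate, none of the 9 passed by edgeR, in a fit that called 2.38% of genes. The changes of the 7 were 0.74 to 1.24 there, with standard errors of 0.26 to 0.33 in place of 0.16 to 0.21.

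**Figure D4:**
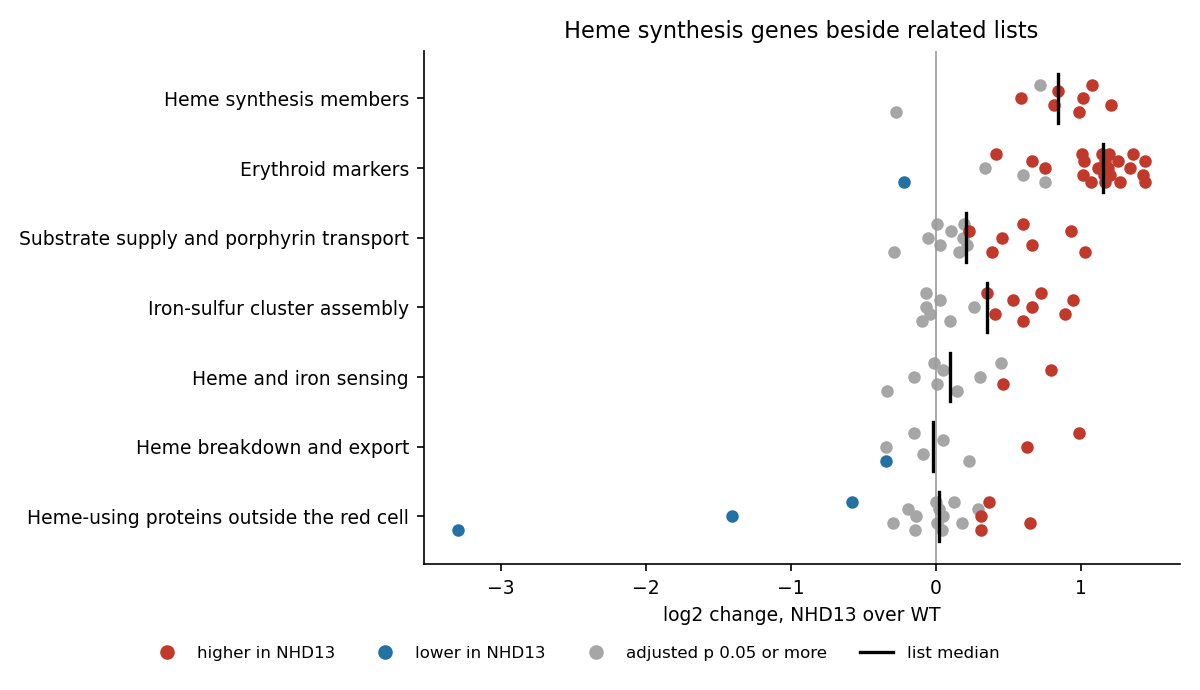
Log2 change of every tested gene, NHD13 over WT, in the heme synthesis members and in 6 related lists, coloured by the edgeR call, with the median of each list as a black line. The erythroid markers have a median of 1.15, the members of 0.84, and the other lists lie between -0.02 and 0.35.

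Per length, the order of the members' means differed between groups. In WT, Alas1 led at 66.6 ± 5.36 CPM per kilobase, followed by Alad (35.1), Urod (29.8), Cpox (26.0), Slc25a38 (13.1), Ppox (12.7), Uros (9.19), Fech (6.68) and Alas2 (4.41), all as means of 3 libraries. Of these neighbours, Slc25a38 and Ppox overlapped and the others did not. Urod and Cpox nearly touched, with 28.535 in the lowest WT library of Urod and 28.530 in the highest of Cpox. In NHD13 the libraries of Alad (mean 73.9), Cpox (59.8), Alas1 (55.0) and Urod (52.4) overlapped from each to the next. Within NHD13 replicates 2 and 3, Alas1 (40.4 and 44.8) was below Alad, Cpox and Urod. Within NHD13 replicate 1 it still stood clear, at 79.9 against 47.3 for Alad, 43.2 for Cpox and 36.4 for Urod. Slc25a38 (23.5), Ppox (19.1), Uros (18.2), Fech (13.5) and Alas2 (7.23) followed. Fech ranks low partly by its length of 13838 exon bases over all annotated transcripts. Before the division its WT mean of 92.5 CPM was above those of Alad (65.7) and Urod (77.2). Lengths from another annotation or from single transcripts could reorder members, and not only close neighbours.

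The same libraries that were high in the 7 genes were high in erythroid markers. Of 26 tested erythroid markers 22 rose and 1 (the transcription factor gene Nfe2, log2 -0.22) fell, with a median log2 change of 1.15. Among all genes tested, 15% were called higher and 15.3% lower. The red cell transcription factor Klf1 was at 111, 184 and 177 CPM in NHD13 replicates 1, 2 and 3, against 66.0, 68.4 and 71.9 CPM in WT (log2 change 1.19, edgeR adjusted p = 0.00221), and the cytoskeletal genes Ank1 and Sptb and the ammonium channel gene Rhag, part of the Rh complex, rose as well. The whole list summed to 4739, 8180 and 7954 CPM in NHD13 and to 3554, 3698 and 4046 CPM in WT. The beta-globin row Beta-s, a gene with near-identical copies, was low at 41.6 to 75.7 CPM in NHD13 and 34.9 to 50.9 CPM in WT, and Hbb-b1 had at most 4 counts in any library. With the Y-linked covariate 1 erythroid marker was called higher, where 0.924% of all genes tested were. Without WT replicate 2, 15 were called higher, where 6.8% of all genes tested were. In bulk RNA, more erythroid cells and more RNA of these genes per cell cannot be told apart.

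Set against that erythroid sum, the 7 genes differed less between the groups. Slc25a38 came to 0.896% to 0.962% of it in NHD13 and 0.902% to 1.01% in WT, Uros to 0.906% to 0.975% and 0.789% to 0.933%, and Urod to 1.9% to 1.99% and 2.0% to 2.08%. Cpox was higher, at 6.07%, 5.72% and 5.53% in NHD13 replicates 1, 2 and 3 against 4.77%, 4.3% and 4.7% in WT, and Alad and Fech had smaller differences of the same direction with no overlap. Ppox turned round, at 1.21% to 1.29% in NHD13 and 1.45% to 1.66% in WT. Urod also turned round without overlap, but narrowly, with 1.993% in its highest NHD13 library and 1.998% in its lowest WT library. Alas1 came to 10.4%, 3.05% and 3.48% in NHD13 and 12.6%, 10.7% and 9.61% in WT. These ratios are descriptions without a test, and they depend on the sum, in which abundant markers weigh most. The sum was 1.85-fold higher in NHD13, while the median log2 change of the tested markers was 1.15. That median is above the log2 changes of Alad (1.07) and Fech (1.01) and close to that of Cpox (1.20). How many of all genes tested would not overlap in such ratios was not counted.

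Alas1 had its high and low libraries in common with markers of neutrophil precursors. Mpo, the heme enzyme myeloperoxidase of their granules, was at 9696, 5052 and 5328 CPM in NHD13 replicates 1, 2 and 3, against 9689, 7406 and 7567 CPM in WT, and the 5 rows of the list summed to 16516, 8728 and 8922 CPM in NHD13 and 16616, 12771 and 13326 CPM in WT. None of the 5 passed the test. In both the list and Alas1, NHD13 replicate 1 and WT replicate 1 were high and NHD13 replicates 2 and 3 were low. The T and NK markers, mostly through Nkg7, had the same high and low libraries. They summed to 237, 132 and 130 CPM in NHD13 and 248, 187 and 199 CPM in WT. The part of these lists, and of the erythroid list, in the members' values was not tested.

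Genes that supply the pathway rose in part. Of 16 genes for substrates and porphyrin transport 7 rose and none fell, with a median log2 change of 0.20. Among all genes tested, 15% were called higher and 15.3% lower. Abcb6, a porphyrin transporter, was at 43.3, 75.7 and 67.3 CPM in NHD13 against 31.5, 34.2 and 31.9 CPM in WT (log2 0.93, edgeR adjusted p = 0.00704). Fam210b, a mitochondrial protein tied to iron import for heme, rose by 1.03 on the log2 scale and the mitochondrial transporter gene Abcb10 by 0.60. Shmt2, which makes glycine in mitochondria, rose by 0.45 and was level within NHD13 (193, 204 and 197 CPM, against 155, 142 and 138 CPM in WT), unlike the heme enzymes. The genes of the succinyl-CoA synthetase subunits, Sucla2, Suclg1 and Suclg2, had log2 changes of 0.01 to 0.16 and did not pass.

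Of 15 genes that build iron-sulfur clusters, the cofactor of ferrochelatase, 8 rose and none fell (median log2 change 0.35), beside 15% higher and 15.3% lower among all genes tested. Glrx5, a glutaredoxin of cluster transfer whose loss causes sideroblastic anemia in people, was at 98.0, 140 and 130 CPM in NHD13 against 64.8, 66.0 and 67.8 CPM in WT (log2 0.89, edgeR adjusted p = 0.00193). Iba57, Isca1 and the chaperone gene Hspa9 rose by 0.95, 0.60 and 0.40 on the log2 scale. Without WT replicate 2, 4 genes of each of these 2 lists were called higher, in a fit that called 6.8% of genes higher.

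Among sensors and breakdown enzymes the shares called were near those over all genes tested (15% higher and 15.3% lower), so the counts are no result about these lists. Of 10 tested genes of heme and iron sensing 2 rose, Aco1, the cytosolic aconitase that doubles as an iron-regulatory protein (log2 0.46, edgeR adjusted p = 0.0241), and the heme-binding protein gene Hebp1 (log2 0.79, adjusted p = 0.0454), and both calls were lost when any library other than NHD13 replicate 1 was left out. Eif2ak1, the heme-regulated kinase of translation, and Bach1, the heme-sensing repressor, had log2 changes of 0.31 and 0.01 and did not pass. Of 8 tested genes of breakdown and export 2 rose and 1 fell: Blvrb, a biliverdin reductase abundant in red cells (log2 0.99, edgeR adjusted p = 0.0133), the porphyrin exporter gene Abcg2 (log2 0.63) and, falling, the heme oxygenase gene Hmox2 (log2 -0.35, edgeR adjusted p = 0.00804). No gene of this list rose when WT replicate 1 or WT replicate 2 was left out.

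Of 19 tested genes for proteins that use heme outside the red cell 4 rose and 3 fell (median log2 change 0.02), again near the 15% and 15.3% over all genes tested. Epx, the peroxidase of eosinophils, was at 8.39, 12.4 and 37.9 CPM in NHD13 against 248, 177 and 155 CPM in WT (log2 -3.29, edgeR adjusted p = 0.00295). Cyp4f18, a myeloid cytochrome P450 gene, fell by 1.41 on the log2 scale, and the mitochondrial genes Cyc1 (cytochrome c1) and Cox15 (heme a synthesis) rose by 0.37 and 0.31. The others called were Cyb5r3 (log2 0.65) and Cox10 (log2 0.31), both higher, and Cybb (log2 -0.58), lower. Without NHD13 replicate 2 or WT replicate 3 no gene of this list was called higher.

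The genes most like each of the 7 members were found by Pearson's correlation of log2 CPM over the 6 libraries, which measures mainly the shared order of the libraries. For Fech they were Sptb, Add2 and Tpm1 (r = 0.9994, 0.9994 and 0.9993), genes of the spectrin-actin membrane skeleton, and those named for Uros were the replication genes Rpa1 and Mcm4. For Alad they were Ift140, Med9 and Ccne1, for Urod Hmgb3, Slc38a5 and Cdc6, for Slc25a38 Metap2, Akr7a5 and Specc1, for Cpox Tarsl2, Nudt19 and Them6, and for Ppox Acp5, Selenbp1 and Dhrs11, with r of 0.9975 to 0.9999.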

How the data were processed

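RNA of 6 libraries was sequenced, and the authors deposited raw counts per gene, which they did not normalise. The tools and build named in the submitters' processing notes are Bowtie2 2.2.1, HTSeq 0.5.4p3 and mm10. Annotation and strand setting are unstated, and without strand, reads of genes overlapping on opposite strands cannot be told apart. Columns were matched to samples by genotype letters and replicate number. Total counts ran from 12541538 to 14388772, so 1 count was 0.0691 to 0.079 CPM.

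Testing used edgeR 4.0.16 (R 4.3.3). Its filterByExpr, at a minimum count of 10, left 12013 genes and set 5510 aside, and TMM scaled the libraries. The quasi-likelihood F test (robust) had the group as its only term. P-values are two-sided and adjusted by the Benjamini-Hochberg method over all genes tested, and standard errors were derived from the log2 change and F. The CPM printed use the TMM-scaled totals. The scripts were tested on simulated counts of 11927 genes with 200 genes changed. At an adjusted p under 0.05, 79.6% of 2-fold and 62% of 1.5-fold changes were recovered, beside 17 false calls. Exon lengths and overlaps come from GENCODE vM21 (GRCm38) and promoters from RefSeq. Log2 CPM for correlations used a prior count of 2.

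The members and lists were chosen with earlier results of these data known. The text names all members, up to 4 called genes per related list, by lowest p, if their average log2 CPM was 2 or more (or the 2 most abundant), and the 3 genes most like each called member, except items that are not reported here. Nfe2, Cyb5r3, Cox10, Cybb, Hbb-b1, Beta-s, Eif2ak1, Bach1, Xist, Kit, Mllt3, Slamf1, Procr and the succinyl-CoA synthetase genes were named for their roles after their values were seen. Listed genes were matched by symbol, or by an older symbol (Beta-s for Hbb-bs). The alternatives were DESeq2 1.42.0, limma-voom (limma 3.58.1), upper-quartile and total scaling, no filter, a replicate block, the Y-linked share as a covariate, and leaving out each library or replicate 1 of both groups.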

Additional observations from a re-analysis of the deposited data

How the results depend on the processing

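Of 126 values of the 9 members under 14 alternatives, 105 kept their direction and side of the threshold, 16 fell below it, 5 rose past it and none reversed. DESeq2, limma-voom, upper-quartile scaling and library totals each called the same number of members, 7. Members called higher numbered 3 to 8 when 1 library was left out and 0 once the Y-linked share was a covariate, and members called lower 0 to 1, with 1 (Alas1) when replicate 1 of both groups was left out. Over the table, leaving out 1 library gave 760 to 3012 higher and 957 to 2966 lower genes; the covariate gave 111 and 175, and leaving out replicate 1 of both groups 3244 and 3246. In the related lists together with an item that is not reported here, 46 genes were higher and 5 lower. Leaving out 1 library gave 25 to 58 and 3 to 7, the covariate 1 and 0, and leaving out replicate 1 of both groups 8 lower. The cause was not tested. The 1 named gene that reversed was Lck (log2 change 0.035 with the covariate). With replicate number as a block, 8 members were called, all higher, Alas2 among them (adjusted p = 0.0264 by edgeR), and 2007 genes were higher and 2233 lower. The standard errors of the 7 genes were 0.101 to 0.154 with the block, against 0.164 to 0.212 in the main fit. The deviations of same-numbered libraries correlated at 0.249, 0.0632 and 0.175. NHD13 replicates 1 and 3 correlated best with the WT library of the same number, and NHD13 replicate 2 with WT replicate 3 (0.149). These values do not settle whether the numbers mark pairs, and they were not taken as pairs. Leaving out 1 library moved the mean Alas2 to Alas1 ratio to between 0.124 and 0.212 in NHD13 and between 0.0612 and 0.0748 in WT.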
